A study of Homo sapiens with 2 samples.

Results

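RBM33, a gene on chromosome 7, gave 6 of the 1485 circular RNAs (circRNAs) listed in SW620 cells, a human colorectal cancer cell line. They were selected as every listed circRNA whose host gene names include RBM33, and in all 6 it was the sole host name. The gene itself was chosen by its read counts in these 2 libraries, namely the many reads of 1 of its circRNAs and its number of isoforms, so no test is made on them. The treated SW620 cells were collected 24 h after addition of 1 mg/mL Hedyotis diffusa-Sculellaria barbata (HD-SB), a herb pair, and gave 1 library, as did SW620 cells labelled Control, for which no vehicle is named. Linear RNA was digested with RNase R before sequencing. The values were taken as counts of reads that cross a back-splice junction, a reading drawn from the steps between them. With 1 library in each group there is no replicate error and no test was made between the groups.

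A circRNA forms when the end of an exon is joined back to the start of the same exon or of an exon upstream of it, and the junction so made is absent from the linear mRNA. A gene can give several circRNAs when different exon ends and starts are joined, and such circRNAs are isoforms of one host. RBM33 encodes an RNA-binding protein, known to bind transcripts that carry the m6A mark and to recruit the demethylase ALKBH5 to them, and linked to nuclear export of GC-rich transcripts through NXF1.

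The HD-SB library held 11570 back-splice reads on 1475 circRNAs and the control 91 reads on 32. The smallest listed value was 2 reads in each, which is 173 CPM (reads per 1000000 listed back-splice reads) in HD-SB and 21978 CPM in the control. Intervals below are 95% intervals for counting error, exact Poisson for reads and Clopper-Pearson for shares, and amplified reads are not independent molecules. Of 15 intestinal epithelium markers, 3 were hosts of HD-SB circRNAs (VIL1, EPHB2 and EPCAM, 54 reads in all). Fibroblast and smooth muscle markers gave 0 hosts of 7, leukocyte markers 1 of 6 (LCK, 9 reads), and endothelial and neural markers 1 of 6 (GRIN2B, 4 reads). A gene that is expressed need not give a listed circRNA, so these counts check the label weakly.

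The 6 isoforms were placed on exons by distance, because the table's positions are not those of RBM33 in GRCh38. In GENCODE 29 on GRCh38 the gene runs on the plus strand of chromosome 7 from 155644451 to 155781485, and 0 of the 6 isoforms lie inside it. Their spans, however, equal distances between exon boundaries of the transcript RBM33-207, which has 18 exons and 10149 bases. For 5 isoforms the span, from the first to the last base of the table's interval, was exactly the distance from the start of one exon to the end of another. The sixth, hsa_circ_0005006, equalled such a distance once 3 bases before the exon start were included. With those bases, all 45 distances between the 10 distinct isoform ends equalled the distances between the matched boundaries. Across the whole table, 1273 of 1403 circRNAs with a host in GENCODE 29 (90.7%) had a span equal to an exon-start to exon-end distance of their host. This match gives exon numbers and not positions, so positions are printed as deposited and no build is assigned to them.

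The junctions are shown because they are what tells the isoforms apart, and the first 3 share everything to the left of the join. Each sequence is read from the GENCODE 29 transcript RBM33-207, 5′ to 3′ on the plus strand, with the last 20 bases of the donor exon in lower case and the first 20 bases of the acceptor exon in capitals. Each is the junction that the matched exons would form, since reads were not analysed here. For hsa_circ_0005006 none is printed, because its 3 extra bases are not in the transcript.
hsa_circ_0001772 (exon 5 to exon 3): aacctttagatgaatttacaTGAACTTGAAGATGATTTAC
hsa_circ_0001771 (exon 5 to exon 2): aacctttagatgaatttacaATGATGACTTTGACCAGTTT
hsa_circ_0083092 (exon 5 to exon 4): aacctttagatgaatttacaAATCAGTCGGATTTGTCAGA
hsa_circ_0002094 (exon 9 to exon 7): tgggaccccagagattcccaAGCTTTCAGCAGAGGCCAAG
hsa_circ_0083110 (exon 16 to exon 15): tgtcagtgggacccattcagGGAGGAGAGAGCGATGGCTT

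**Figure D1:**
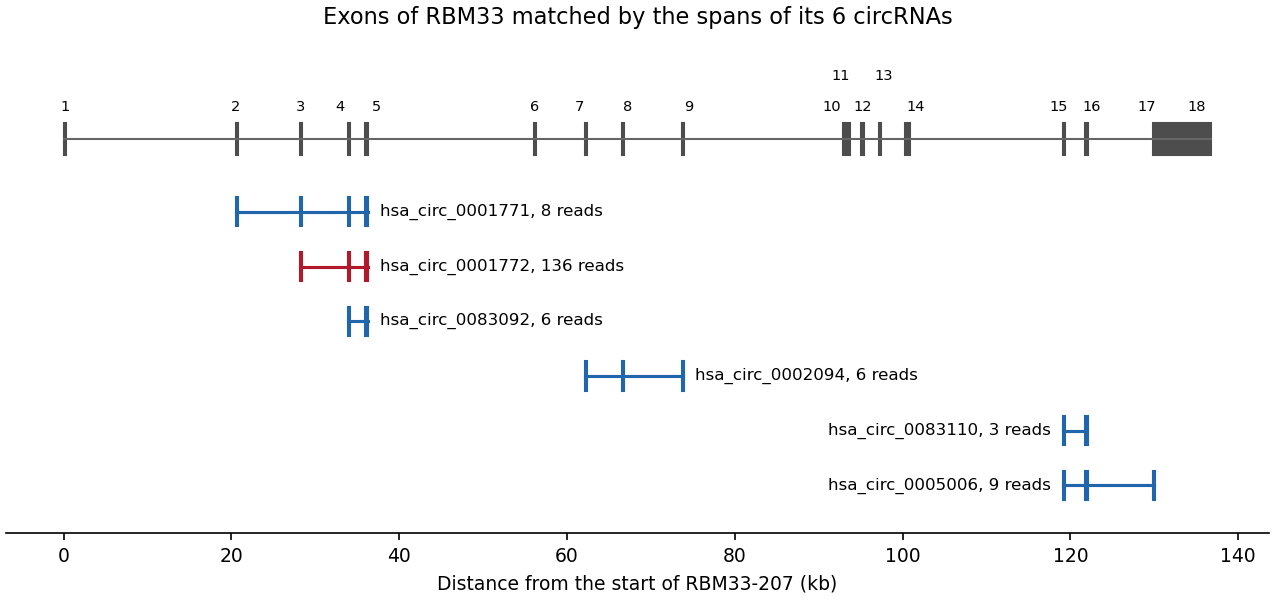
Exons of RBM33-207 (grey, numbered) against distance from the start of the transcript in kb, with the exons matched by each of the 6 circRNAs below and their HD-SB reads beside them. Narrow exons are widened to be visible, hsa_circ_0001772 is in red, and the 3 isoforms that end at exon 5 carry 150 of the 168 reads.

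One isoform carried most of the signal. hsa_circ_0001772 (chr7:155465561-155473602 as deposited, a span of 8042 bp, matched to exons 3 to 5) had 136 reads (114 to 161) or 11755 CPM in HD-SB, and 5 reads or 54945 CPM in the control. It had rank 4 of all circRNAs in HD-SB and shared rank 2 in the control. Its 136 reads were 80.95% of the 168 RBM33 reads in that library (74.2 to 86.6).

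The other 5 isoforms together had 32 HD-SB reads and were not listed in the control. hsa_circ_0005006 (chr7:155556503-155567341, exons 15 to 17) had 9 HD-SB reads (4.12 to 17.1) or 778 CPM. hsa_circ_0001771 (chr7:155457869-155473602, exons 2 to 5) had 8 reads (3.45 to 15.8) or 691 CPM. These were the next in order, and the leading isoform had 15.1 times the reads of hsa_circ_0005006.

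hsa_circ_0083092 (chr7:155471302-155473602, exons 4 and 5) and hsa_circ_0002094 (chr7:155499554-155511137, exons 7 to 9) had 6 reads each (2.20 to 13.1) or 519 CPM. hsa_circ_0083110 (chr7:155556506-155559349, exons 15 and 16) had 3 reads (0.619 to 8.77) or 259 CPM. The intervals of these 5 isoforms all overlap one another, so their order below hsa_circ_0001772 is not resolved at this depth, while the interval of hsa_circ_0001772 lies above all of them. Against the 1475 circRNAs of HD-SB, 79.1% had fewer reads than hsa_circ_0005006 and 14.5% had fewer than hsa_circ_0083110, while the library ran from 2 to 373 reads with a median of 5.

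**Figure D2:**
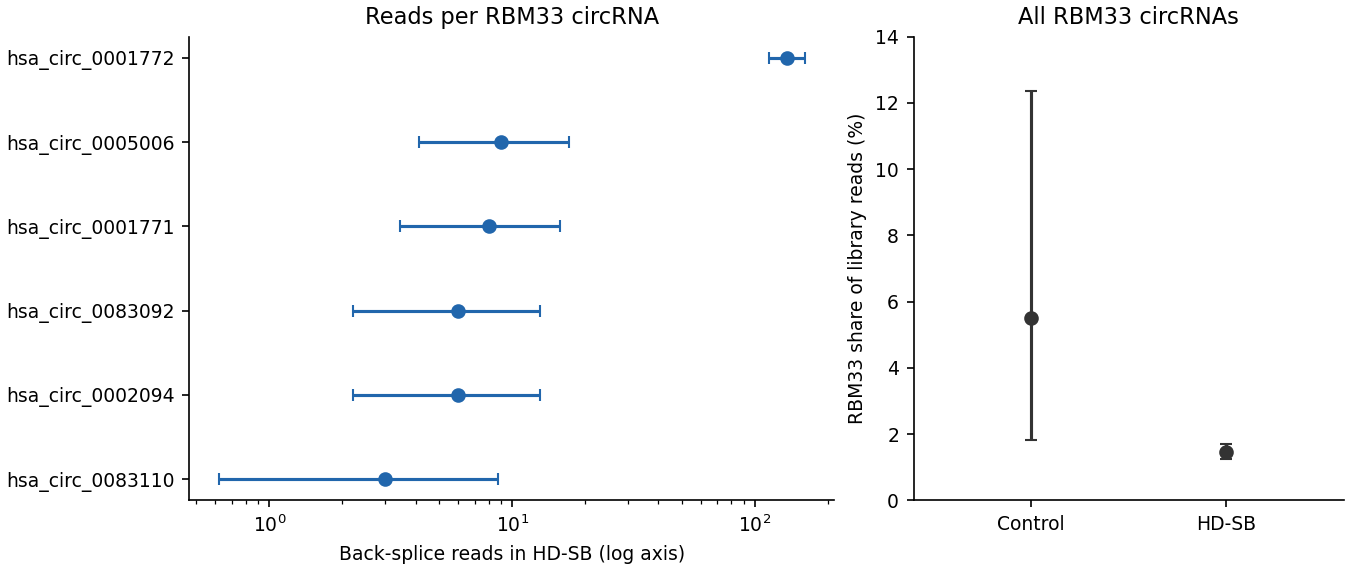
Left, HD-SB back-splice reads of each RBM33 circRNA on a log axis with exact Poisson 95% intervals. Right, all RBM33 reads as a percentage of each library's reads with Clopper-Pearson 95% intervals, 5.49% in the control and 1.45% in HD-SB. The leading isoform stands at 136 reads and the others between 3 and 9.

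The isoforms fell into 3 separate stretches of the gene. The upstream stretch held hsa_circ_0001771, hsa_circ_0001772 and hsa_circ_0083092, which are nested and close at the same base, 155473602, matched to the end of exon 5. Together they had 150 reads, 89.3% of RBM33 reads (83.6 to 93.5). Within this stretch the start differed, at exon 2 with 8 reads, exon 3 with 136 and exon 4 with 6, so 90.7% of the reads that closed at exon 5 (84.8 to 94.8) went back to exon 3. Exon 3, at 49 bases, is the shortest of the 18 exons of RBM33-207.

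The middle stretch, 25951 bp further on, held hsa_circ_0002094 with 6 reads, 3.57% of RBM33 reads (1.32 to 7.61). The downstream stretch, another 45365 bp on, held hsa_circ_0005006 and hsa_circ_0083110 with 12 reads, 7.14% (3.75 to 12.1). The starts of this last pair lay 3 bases apart, and their ends differed, at exon 17 and exon 16. Exons 1, 6, 10 to 14 and 18 were inside no listed RBM33 circRNA. Exons 1 and 18 are the outermost, which lack the acceptor or the donor a back-splice needs, and exon 1 holds the start codon of RBM33-207. The exons of all 6 isoforms are coding in that transcript.

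Of the 15 pairs of RBM33 isoforms, 3 shared an end, 0 shared a start, and 12 shared neither. Elsewhere in the table, 975 pairs of circRNAs had the same host name and chromosome, counted once per shared name. Of these, 11.9% shared an end and 11.5% a start. RBM33 pairs shared 1 side or the other in 20% of cases against 23.4% elsewhere, so its sharing was close to the rest of the table in amount, and all of it lay at exon 5.

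The introns beside the joined exons ranged from the longest to the shortest of the transcript. RBM33-207 has 17 introns with a median of 5692 bp, and its 4 longest are intron 1 (20255 bp), intron 5 (19864 bp), intron 9 (19086 bp) and intron 14 (18209 bp). Each of these 4 borders a back-splice, as intron 1 precedes exon 2, intron 5 follows exon 5, intron 9 follows exon 9 and intron 14 precedes exon 15. Of the 17, introns 2, 3, 6, 16 and 17 border one too, the last being the shortest. A link between intron length and back-splicing was not tested. The intron after exon 5, used by the 3 upstream isoforms, was longer than the corresponding intron of 77.5% of the 1268 circRNAs of other hosts whose exons could be read. The intron before exon 3, which borders the start of the leading isoform, was 7613 bp, near the middle of those circRNAs (51.3% shorter). The introns before exon 4 (5692 bp) and exon 7 (5915 bp), which border the starts of hsa_circ_0083092 and hsa_circ_0002094, lay somewhat below it (43.1% and 43.8% shorter). hsa_circ_0005006 stood at the other end, with 345 bp after exon 17, the shortest intron of the transcript (1.11% of others shorter).

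The exons of the 6 isoforms added up to 396 to 524 bases if every exon between the matched ends is kept, against a median of 371 for other hosts. The leading isoform came to 445 bases, from exons of 49, 77 and 319, and its span was 18.1 times that length. hsa_circ_0001771 came to 524 bases and hsa_circ_0005006 to 488, its 3 extra bases included. hsa_circ_0083092 and hsa_circ_0083110 both came to 396 bases, a multiple of 3, and the other 4 lengths were not multiples of 3. For hsa_circ_0002094 the content depends on the transcript, as RBM33-207 gives 521 bases, RBM33-209 gives 551 and RBM33-202, with 1 more exon, gives 608. Back-splice reads do not show which internal exons were kept.

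Base composition separated the upstream stretch from the others. The exons of hsa_circ_0001772 were 38.9% GC, those of hsa_circ_0083092 39.4% and those of hsa_circ_0001771 41.0%, against 49.7% for the whole transcript. Exons of hsa_circ_0005006, hsa_circ_0002094 and hsa_circ_0083110 were 62.3%, 62.8% and 65.7% GC. The upstream isoforms share the 396 bases of exons 4 and 5, and the downstream pair shares exons 15 and 16, so these are not independent values. Among circRNAs of other hosts the median was 49.9%, and 5.52% had a lower GC than hsa_circ_0001772, while 96.5% had a lower GC than hsa_circ_0083110. The 29 circRNAs of other hosts listed in the control had a median of 44.0%, against 50.0% for those listed in HD-SB alone, and hsa_circ_0001772, the 1 RBM33 isoform listed in the control, had the lowest GC of the 6. The part of base composition in what was listed was not tested.

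**Figure D3:**
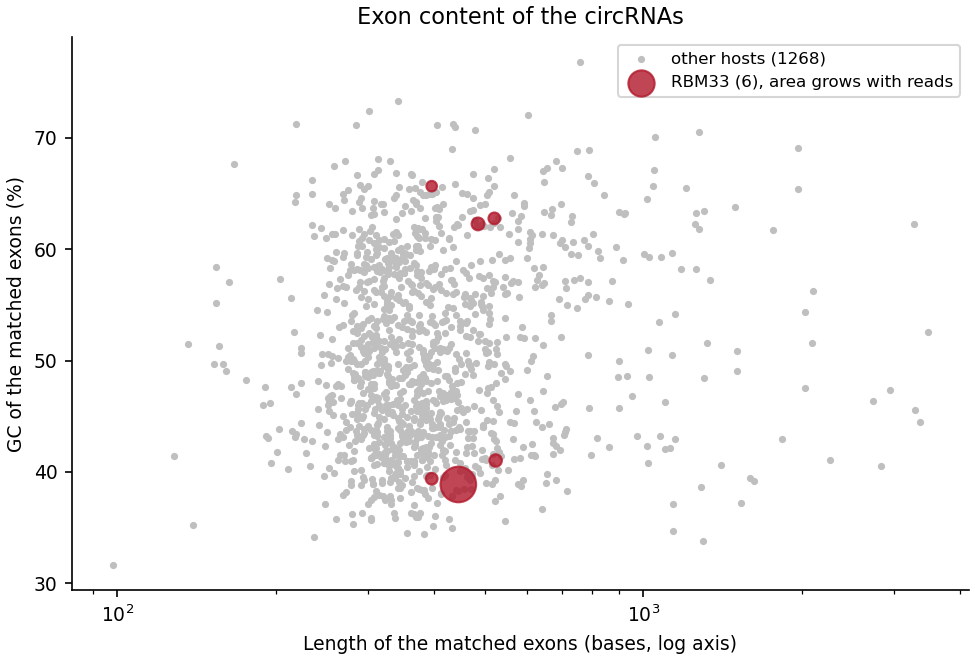
Length of the matched exons in bases (log axis) against their GC percentage for 1268 circRNAs of other hosts (grey) and the 6 of RBM33 (red, area growing with HD-SB reads). The RBM33 points form a low-GC group of 3, with the leading isoform at 38.9%, and a high-GC group of 3 at 62.3% to 65.7%.

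The title of the series names the microRNA hsa-miR-204-5p, which was therefore looked up in the RBM33 isoforms. Its mature sequence in RefSeq (GRCh38.p14) is shown with its seed, bases 2 to 8, in capitals.
hsa-miR-204-5p: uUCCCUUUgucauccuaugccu
The letters AAAGGGA, complementary to that seed, were searched on the RNA strand of the matched exons, across the junction as well. They occurred 2 times in hsa_circ_0002094, at bases 43 to 49 of exon 7 and 226 to 232 of exon 8, and 0 times in the other 5 isoforms. These were the 2 occurrences in the whole of RBM33-207, and they are shown with 10 bases either side, the match in capitals.
exon 7 match: gaatttgaagAAAGGGAgcgacagcat
exon 8 match: cccgcacttcAAAGGGAcggtggtcac
The same letters occurred in 4.50% of the 1268 circRNAs of other hosts, and in 4.12% of the 291 with exon lengths in the range of the RBM33 isoforms. A match of letters is not a measured site, and hsa_circ_0002094 had 6 HD-SB reads.

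For single isoforms, the 2 libraries could be compared for the leading one alone, and with wide intervals. hsa_circ_0001772 took a share of control reads 4.67 times its HD-SB share (1.49 to 11.2, conditional on the sum of its reads). All RBM33 isoforms together held 168 HD-SB reads, 1.45% of the library (1.24 to 1.69), and 5 control reads, 5.49% (1.81 to 12.4). The control share was 3.78 times the HD-SB share (1.21 to 9.01, by the same interval). Reads of circRNAs of other hosts that were not listed are missing from the control total, which raises these ratios, and hidden reads of the 5 unlisted RBM33 isoforms are missing too, which lowers the ratio of the gene. At its HD-SB share hsa_circ_0001772 would have had 1.07 reads among 91, against the 5 observed. To be listed there with 2 reads it needed a share 1.87 times that in HD-SB. Being listed thus fixed the direction of its ratio and of the gene's, and the intervals do not allow for this. With 1 hidden read assumed for each unlisted RBM33 isoform and none for other hosts, the control would hold 10 RBM33 reads. The ratio would then be 7.17 (3.38 to 13.5). This setting can only raise the ratio, and its interval treats assumed reads as counted ones, so no direction is drawn from it.

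The control was too shallow to show the minor isoforms. To be listed there with 2 reads, hsa_circ_0005006 would have needed a share 28.3 times that in HD-SB, and hsa_circ_0083110 a share 84.8 times. All 5 control reads of RBM33 fell on hsa_circ_0001772, which alone gives 100% (47.8 to 100), and with 1 hidden read for each other isoform 50% (18.7 to 81.3). Both intervals overlap that of the HD-SB value of 80.95%, which does not by itself settle whether the libraries differ. With 5 control reads and assumed hidden ones, a change in isoform use could not be assessed at this depth.

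By a rule of size, a difference of 2-fold or more on the log2(CPM + 173) scale, 4 of the 6 isoforms were higher in HD-SB, where 96.0% of the 797 circRNAs that passed the filter on mean level (216 CPM) were, and 1 was lower, where 4.02% were. The lower one was hsa_circ_0001772, with a log2 value of -2.21, and hsa_circ_0083110 did not pass the filter. All 32 circRNAs listed in the control were called lower, and no others were. The lower call of hsa_circ_0001772 therefore says no more than that it was listed there. The isoforms called higher have no listed control value, and the pseudocount alone set their direction. Being listed in HD-SB and not in the control held for 97.8% of all circRNAs, and being listed in both for 1.48%, the class of hsa_circ_0001772. With median-ratio scaling, which multiplies control values by 0.0406, the log2 value of hsa_circ_0001772 turned to 2.31, and with 0.5 read added in each library the 5 others turned negative.

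Of the 26 hosts with reads in both libraries, all had a larger share in the control, with a median ratio of 22.5, and RBM33 had the second smallest ratio. The listing minimum fixes that direction, because 2 control reads equal the share of 254 HD-SB reads and the most that any of these hosts had was the 168 of RBM33. The small ratio of RBM33 goes with its many HD-SB reads, among the values it was chosen by, and supports nothing further. The 3 hosts nearest to RBM33 in this ratio, over 2 libraries, were SLC38A1, an amino acid transporter (2 control and 39 HD-SB reads, 6.52-fold, 0.763 to 25.2), CAMSAP1, which binds microtubule minus ends (2 and 128 reads, 1.99-fold, 0.238 to 7.32), and RSRC1, a splicing-related protein (4 and 68 reads, 7.48-fold, 1.98 to 20.04). The interval of RBM33 overlapped all 3, so these neighbours in the order are not told apart.

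**Figure D4:**
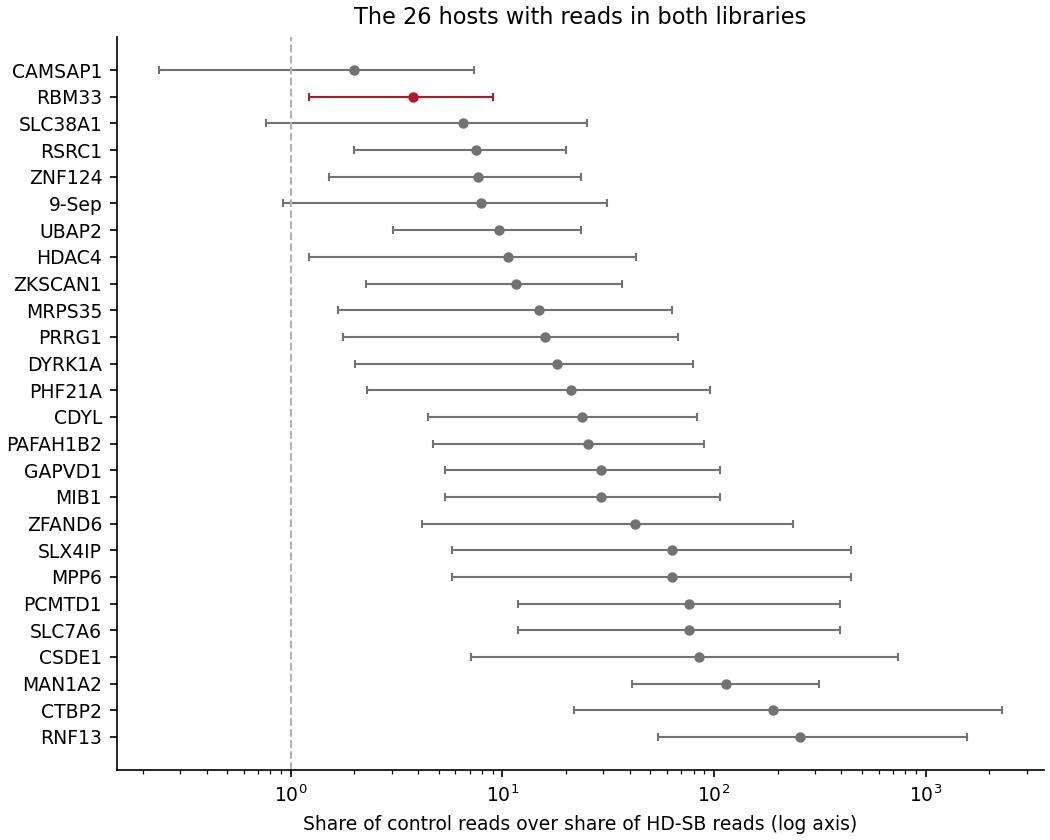
Ratio of the share of control reads to the share of HD-SB reads (log axis) for each of the 26 hosts with reads in both libraries, with 95% intervals conditional on the sum of reads, and a dashed line at equal shares. RBM33 (red) lies second from the top at 3.78, and every point lies to the right of the line, as the listing minimum fixes.

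Among hosts, RBM33 combined many isoforms with a high share of reads on 1 of them. HD-SB circRNAs came from 1193 host names, of which 79.5% had 1 circRNA and 20 had at least 6. RBM33 shared rank 12 by number of circRNAs with 8 others and had rank 5 by summed reads. Most names above it are small-RNA names such as Y_RNA, given to 76 circRNAs, and without such names it shared rank 3. The leading isoform held 81.0% of RBM33 reads, the highest of these 20 hosts, whose other members ranged from 9.52% to 75.6% with a median of 27.0%. Of those 19, the 7 without small-RNA names had a median of 42.9%. Over all 245 hosts with more than 1 circRNA the median was 62.5%, and 41 of them had a higher share than RBM33.

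The hosts nearest to RBM33 in this measure were ATXN10 (6 circRNAs, 65 of 86 reads on the leading one, 75.6%), the Wnt co-receptor LRP5 (6 circRNAs, 84 of 123 reads, 68.3%) and ARHGAP32 (6 circRNAs, 13 of 30 reads, 43.3%). The value of ATXN10 lies inside the interval of RBM33 and those of LRP5 and ARHGAP32 lie below it. Intervals of these other hosts were not computed, so the values alone do not tell any of them apart from RBM33. None of the 19 other hosts had a listed control read, and of all 1193 HD-SB hosts 26 had one. RBM33 was thus the only host of these 20 with a control read. It was chosen by its many reads in these libraries, so nothing further is drawn from this. As the reads on a leading circRNA are part of what made RBM33 stand out, this order is a description.

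**Figure D5:**
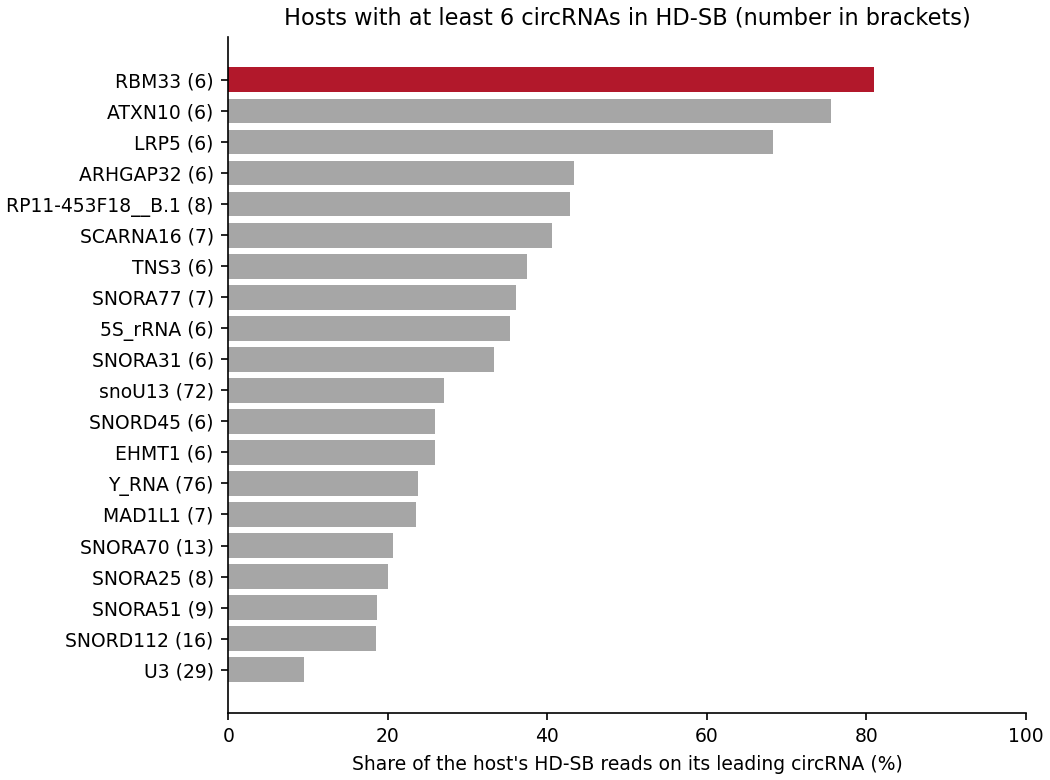
Share of a host's HD-SB reads on its leading circRNA, in percent, for the 20 hosts with at least 6 circRNAs, whose number is in brackets. RBM33 (red) is the longest bar at 81.0% and ATXN10 follows at 75.6%.

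Hosts from the pathways RBM33 is linked to are given with their reads. These are not weighed against RBM33, which was chosen by its many reads. Of 22 writers, erasers and readers of m6A, 4 were hosts, with 5 circRNAs and 71 HD-SB reads. They were the demethylases FTO (hsa_circ_0005941 with 26 reads and hsa_circ_0039398 with 3) and ALKBH5 (hsa_circ_0004142, 8 reads), the RNA-binding protein HNRNPC (hsa_circ_0003643, 20 reads) and the methyltransferase METTL3 (hsa_circ_0000523, 14 reads). Of 22 mRNA export genes around TREX and NXF1, 0 were hosts. Of 19 regulators of splicing and circRNA formation, 3 were, each with 1 circRNA, namely the epithelial splicing regulator ESRP1 (5 reads), MBNL1 (5 reads) and the splicing factor U2AF1 (2 reads). These lists had 0 listed control reads. By the rule of size, 4 of the m6A circRNAs and 2 of the splicing ones passed the filter, and all were called higher, as were 96.0% of those tested.

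Other genes with RBM names were 6 of the hosts, with 8 circRNAs and 70 HD-SB reads. The splicing factor RBM39 had 23 reads on hsa_circ_0008817, RBM6 had 15 on hsa_circ_0006531 and RBM41 had 14 on hsa_circ_0002995. RBM5, a splicing regulator, had 3 circRNAs of 2 reads each, the other host here with several isoforms, and none of them led as in RBM33. RBM34, which shares its circRNA with the host name ARID4B, had 8 reads and RBM26 had 4. None of these circRNAs was listed in the control. Reads of a circRNA reflect both how much of it forms and how long it lasts, and they do not give the level of the host's mRNA or protein.

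All 6 isoforms had a circBase identifier, against 75.6% of HD-SB circRNAs. Their spans ran from 2301 bp (hsa_circ_0083092) to 15734 bp (hsa_circ_0001771) with a median of 9441 bp, against 4076 bp for HD-SB circRNAs, and the leading isoform lay between, at 8042 bp.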

How the data were processed

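The members and lists were chosen with earlier results of these data known. Per the labels' protocols, RNA of 2 SW620 samples was freed of ribosomal RNA, digested with RNase R, fragmented and amplified by PCR. The submitters' processing notes name FastQC, HISAT2 2.1.0 and GRCh38, with no role stated, and the circRNA caller is not given in the sources used here. The authors' deposited columns are headed TPM but behave as CPM: each column adds up to 1000000, and 100% of listed values are whole multiples of 1 step (10989 CPM in the control, 86.4 in HD-SB) within 0.01 of a step. Dividing by the step gave reads. The value 0.001 was read as not listed, that is 0 or 1 read.

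Log2 ratios used a pseudocount of 173 CPM, the 5th percentile of what was listed, and kept circRNAs whose mean was 216 CPM or more, the median. No test was made, with 1 library per group. Spans were matched to exon distances of GENCODE 29, and where several transcripts of a host matched, the longest was used. This match, the search for seed letters and the 0.5-read setting were chosen after seeing the data. Every RBM33 circRNA is named. Named besides are the 3 hosts nearest in ratio, the 3 nearest in the share of the leading circRNA among hosts with at least 6, list members with the most reads and the nearest hosts on chromosome 7. Recovery of reads, the size rule and the interval were tested on simulated data (Python 3.11.15, scipy 1.17.1).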

Additional observations from a re-analysis of the deposited data

How the results depend on the processing

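The 0.5-read pseudocount, the removal of small-RNA names and the added hidden reads were chosen after seeing the data. The share of RBM33 in HD-SB reads, 1.45%, became 1.73% among circRNAs with a circBase identifier and 0.407% when circRNAs rather than reads were counted. The control share stayed inside its interval under all settings run, but none of them added unlisted reads of other hosts, which would lower it. The 4 isoforms at least 2-fold higher became 1 with a pseudocount 4 times larger, 2 with the filter at the 75th percentile and 0 with 0.5 read. The 1 lower became 0 with median-ratio scaling and 5 with 0.5 read. With median-ratio scaling the log2 value of hsa_circ_0001772 was 2.31. With 0.5 read it was -2.74 for hsa_circ_0005006, -2.90 for hsa_circ_0001771, -3.29 for hsa_circ_0083092, -3.29 for hsa_circ_0002094 and -4.18 for hsa_circ_0083110. The direction for isoforms unlisted in the control is thus set by the value given to an unlisted one. Rank 12 by number of circRNAs became 2 with 1 host name alone, 4 with circBase identifiers alone and 3 without small-RNA names, by removing hosts. The 3 isoforms with a shared end became 5 with ends within 5 bases counted as shared. The share of the leading isoform was 81.0% under all 3 settings, which removed no isoform. No paired analysis was possible because there is 1 library in each group.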

Other observations

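RBM33 gave 6 of the 101 circRNAs listed on chromosome 7 and 18.2% of their 925 HD-SB reads. The nearest hosts on the side of its first exon were CNPY1, 156077 bp away with 7 HD-SB reads on 1 circRNA without a circBase identifier, and KMT2C, a histone methyltransferase, with 4 reads on hsa_circ_0002932. On the other side were LMBR1, 1051958 bp away with 12 reads on hsa_circ_0005939, and NOM1 with 3 reads on hsa_circ_0004210. None of these 4 circRNAs was listed in the control.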
